A study of Homo sapiens with 6 samples.

Results

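The ATP-binding cassette (ABC) genes were taken as every gene name made of ABC, a letter from A to G and digits, with nothing after them. Of the 55401 gene names in the files, 46 matched. RefSeq annotates 45 of them as protein coding and ABCC13 as a transcribed pseudogene. RNA sequencing was done on RMS13, a human alveolar rhabdomyosarcoma cell line, and on RMS13-R, a line with acquired resistance to MAL3-101 derived from it. MAL3-101 is a small-molecule inhibitor of HSP70 chaperones and DMSO is its vehicle. The 3 groups were RMS13-R with 10 µM MAL3-101, RMS13 with 10 µM MAL3-101 and RMS13 with DMSO, each for 9 h and each with 2 libraries, A and B. RMS13-R without the drug was not analysed here, so a property of the resistant line and its response to the drug cannot be told apart. Nothing in the labels tells if A and B came from separate cultures or if RMS13-R is 1 clone, so a p-value here reflects only how these libraries vary, which may be technical variation. Both DMSO and MAL3-101 stand in the titles of the vehicle libraries, whose descriptions name DMSO.

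ABC proteins use the energy of ATP to move molecules across membranes. Some, such as P-glycoprotein, carry drugs out of cells and are known for multidrug resistance in tumours, where a raised pump lowers the drug level inside the cell. Others move lipids, sterols, peptides, haem or fatty acids across the plasma membrane or organelle membranes, and the E and F families have ATP-binding domains but no membrane domain and act on ribosomes. The comparisons ask whether any of these genes, and in particular any drug efflux pump, stood higher in the resistant line. The data are transcript levels, and neither transport nor the level of MAL3-101 in the cells was measured.

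Levels are in TPM, a unit scaled by transcript length and by library. Depth cannot be read back from it, and counting error is therefore not given. Between 13918 and 14334 gene names stood at 1 TPM or more in a library. The muscle markers of the tumour type marked the cells: 9 of 10 stood at 1 TPM or more, with summed levels of 2272 and 2291 TPM in RMS13-R with MAL3-101, 2316 and 2317 TPM in RMS13 with MAL3-101, and 2519 and 2347 TPM with DMSO, while MYF5 was listed at 0. These sums hold members that moved both ways. By the limma test described with the ABC counts, 5 of 9 tested were higher and 2 lower in RMS13-R in both comparisons. These shares were 55.6% and 22.2%, beside 21.3% and 34.8% of all tested genes against the drug, and 20.9% and 29.7% against DMSO. MYOG, DES, PAX3 and FOXO1 were higher and MYOD1 and CHRNA1 lower in both comparisons. The other higher gene was CDH15 against RMS13 with the drug and TMEM8C against DMSO. CHRNA1, a subunit of the muscle acetylcholine receptor, had 52.1 and 49.9 TPM in RMS13-R, 315 and 312 TPM in RMS13 with MAL3-101, and 285 and 337 TPM with DMSO. Markers of blood, endothelium and hepatocytes stayed under 1 TPM. Of 5 fibroblast markers 2 reached 1 TPM, and their sum was 9.06 and 8.33 TPM in RMS13-R, 26.6 and 29.5 TPM in RMS13 with MAL3-101, and 19.1 and 21.1 TPM with DMSO. Epithelial markers, of which only EPCAM reached 1 TPM, summed to 0.660 and 0.680 TPM, 6.12 and 6.23 TPM, and 3.87 and 3.58 TPM in the same groups. Neuronal markers, with 2 of 3 at 1 TPM, summed to 2.59 and 3.05 TPM, 7.87 and 8.03 TPM, and 5.68 and 6.70 TPM. The part of these levels in the ABC results was not tested. In cultures measured as a whole, fewer cells with a transcript and less transcript per cell cannot be told apart.

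The ABC genes split into expressed and near-silent members. To be tested, a gene had to average at least 1 TPM in some group, which 20 of the 46 did. Of these, 19 reached it in every group, and ABCC6 only in RMS13 with MAL3-101. The other 26 stayed at or under 0.580 TPM in every library, and 4 of them, ABCA5, ABCB11, ABCC12 and ABCG5, were listed at 0 in all 6. Of the tested genes, 14 averaged 10 TPM or more over the 6 libraries. The highest were ABCF1, ABCF2 and ABCE1, which have no membrane domain. Summed over all 46 genes, the level was 617 and 641 TPM in RMS13-R with MAL3-101, 599.8 and 617 TPM in RMS13 with MAL3-101, and 645 and 653 TPM with DMSO. The 4 members without a membrane domain held much of this sum. Theirs was 290 and 301 TPM, 323 and 327 TPM, and 352 and 366 TPM in the same groups. The sum of all 46 thus mixes members that moved in either direction.

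**Figure D1:**
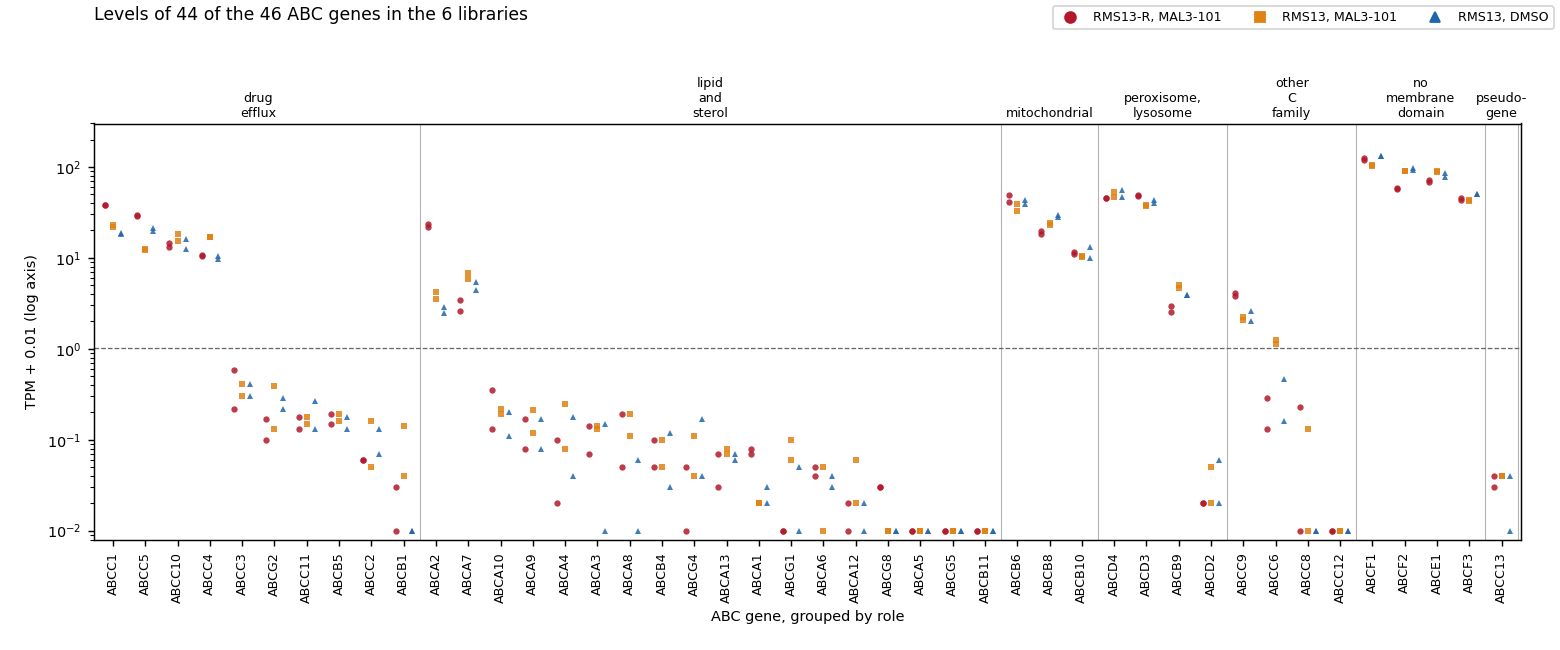
TPM of 44 ABC genes in each of the 6 libraries, on a log axis after adding 0.01, grouped by role and ordered by mean level within a role. Each point is a library, and the dashed line marks 1 TPM. Of the 18 tested genes shown, 17 lie above the line and ABCC6 lies on both sides of it, and the other 26 lie below it in all libraries. ABCA2 stands apart in RMS13-R.

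Expressed ABC genes moved in both directions in the resistant line. The difference was tested with limma on log2(TPM + 1), fitted over all 15148 genes tested, with Benjamini-Hochberg adjustment, and genes with an adjusted p below 0.05 are termed called. Fold changes on this scale understate those of genes with low levels. Against RMS13 with the drug, 7 of 20 ABC genes were called higher and 7 lower in RMS13-R, where 21.3% of all tested genes were higher and 34.8% lower (56.1% in either direction). Against RMS13 with DMSO, 5 were higher and 6 lower, beside 20.9% and 29.7% of all tested genes (50.6% in either direction). In RMS13, the drug itself went with 4 ABC genes higher and 4 lower, beside 22.6% and 18.2% of all tested genes (40.8% in either direction). The members' shares were 35% and 35%, 25% and 30%, and 20% and 20%. ABCC6, which entered through 1 group, is among the lower against the drug and among the higher for the drug in RMS13. The median log2 fold change of the 20 was 0.02, -0.06 and -0.05 in the 3 comparisons, beside -0.10, -0.06 and 0.02 for all tested genes. After median-ratio scaling the ABC genes called against the drug were 8 higher and 6 lower, beside 28% and 28.8% of all tested genes. After the same scaling the calls were 5 higher and 3 lower against DMSO in place of 5 and 6, beside 26.3% and 25.4% of all tested genes under that scaling. After upper-quartile scaling they were 3 higher and 5 lower for the drug in RMS13 in place of 4 and 4, beside 19.8% and 22.5% of all tested genes. Single libraries also moved these counts: against DMSO they were 3 higher and 2 lower without RMS13-R library A, beside 13.2% and 19.4% of all tested genes, and 3 and 3 without B, beside 12.7% and 20.2%. For the drug in RMS13 they were 1 higher and 2 lower without RMS13 MAL3-101 library A, beside 11.8% and 8.94% of all tested genes, or without B, beside 12.7% and 9.41%. Without RMS13-R library A or B they were 2 higher and 3 lower, beside 17.7% and 13.7% of all tested genes.

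The resistant comparisons share the RMS13-R libraries, and each is given for the members side by side. ABCA2, ABCC1, ABCC5, ABCC9 and ABCD3 were called higher in RMS13-R than in both RMS13 groups. ABCA7, ABCB8, ABCB9, ABCE1 and ABCF2 were called lower than in both. ABCB10, ABCC10 and ABCD4 were called in none of the 3 comparisons, though each passed in some alternative. Without DMSO library A, ABCD4 was called against DMSO (-0.27, adjusted p = 0.0231 by limma) and ABCC10 for the drug in RMS13 (0.41, adjusted p = 0.0287). Without DMSO library B, ABCB10 was called for the drug in RMS13 (-0.31, adjusted p = 0.0296). Only ABCA2, ABCC1 and ABCC5 had a called log2 fold change of 1 or more in size in any comparison.

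**Figure D2:**
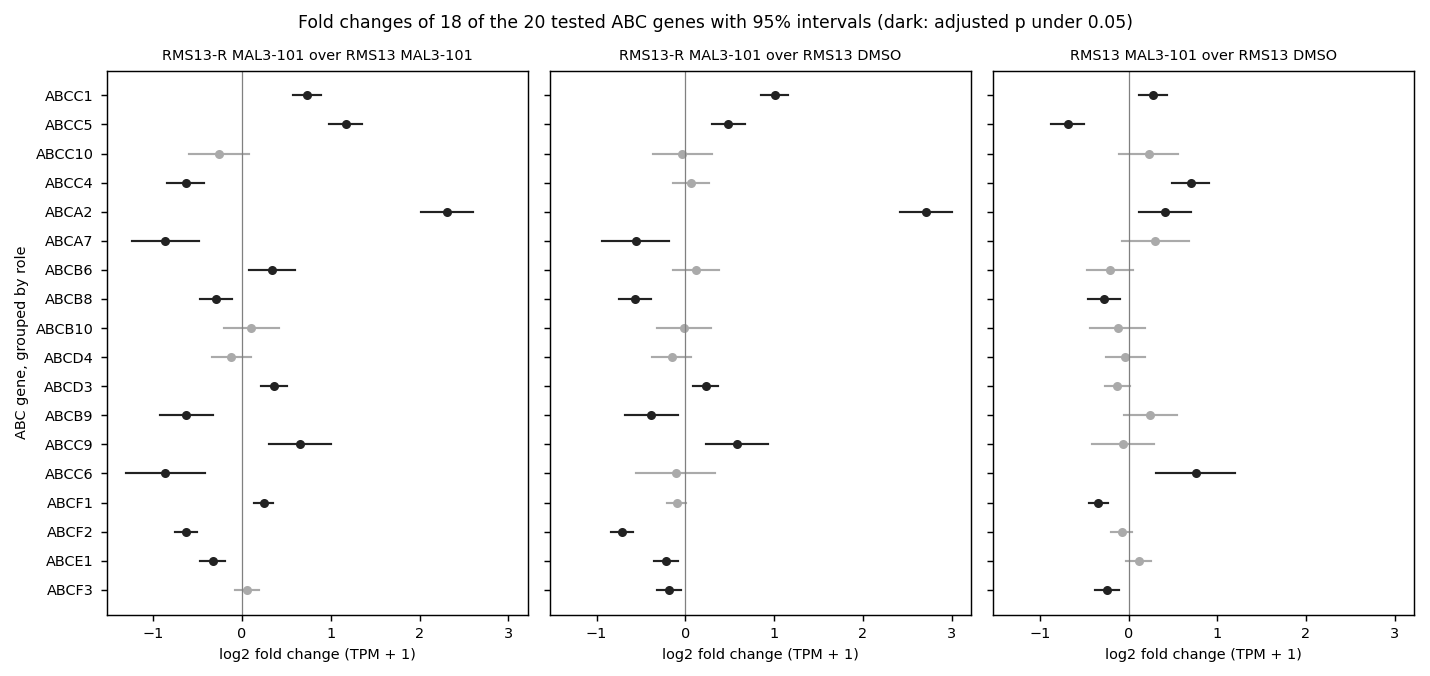
Log2 fold changes, on the TPM + 1 scale, of 18 of the 20 tested ABC genes in the 3 comparisons, with 95% confidence intervals from the limma fit. Dark points passed an adjusted p under 0.05. ABCA2 lies farthest to the right in both resistant comparisons, and ABCC5 and ABCC4 lie on opposite sides of 0 with the drug in RMS13.

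Drug efflux pumps come first. ABCB1, which encodes P-glycoprotein, the best known multidrug pump, was near silent, with 0 and 0.02 TPM in RMS13-R with MAL3-101, 0.03 and 0.13 TPM in RMS13 with MAL3-101, and listed at 0 in both DMSO libraries. ABCG2, the breast cancer resistance protein, which exports many anticancer drugs, had 0.16 and 0.09 TPM in RMS13-R, 0.12 and 0.38 TPM in RMS13 with MAL3-101, and 0.28 and 0.21 TPM with DMSO. Neither gene was higher in the resistant line beyond the spread of the libraries. With no filter on low values, the log2 fold changes against RMS13 with the drug were -0.10 (SE 0.06) for ABCB1 and -0.14 (SE 0.11) for ABCG2, with adjusted p = 0.325 and 0.447 by limma. The same held for ABCB5, ABCC2, ABCC3 and ABCC11, pumps of drugs or organic anions, none above 0.580 TPM in a library. These 6 of the 10 listed pumps were therefore outside the test.

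ABCC1 encodes MRP1, a plasma membrane pump for glutathione conjugates and several anticancer drugs. It had 38.1 and 37.9 TPM in RMS13-R with MAL3-101, 23.0 and 21.9 TPM in RMS13 with MAL3-101, and 18.7 and 18.2 TPM with DMSO. The libraries of each group lay close together and the groups did not overlap, as held for most tested genes in each comparison. The mean was 1.69 times that of RMS13 with the drug and 2.06 times that with DMSO, with log2 fold changes of 0.73 (SE 0.07, adjusted p = 1.1e-04 by limma) and 1.01 (SE 0.07, adjusted p = 3.9e-05). The drug in RMS13 went with a smaller difference, 0.27 (SE 0.07, adjusted p = 0.0153), which did not pass without any 1 of the RMS13-R or RMS13 MAL3-101 libraries (adjusted p from 0.0508 to 0.113).

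ABCC5 encodes MRP5, which exports cyclic nucleotides and nucleotide analogues. It had 29.6 and 28.5 TPM in RMS13-R with MAL3-101, 12.2 and 12.6 TPM in RMS13 with MAL3-101, and 21.5 and 19.5 TPM with DMSO. The resistant libraries were the highest and the drug-treated RMS13 libraries the lowest, without overlap. Against RMS13 with the drug the log2 fold change was 1.17 (SE 0.08, adjusted p = 3.6e-05 by limma), and against DMSO 0.48 (SE 0.08, adjusted p = 0.00209). The first of these includes a lower level with the drug in RMS13, -0.69 on the log2 scale (SE 0.08, adjusted p = 8.4e-04). The second sets drug-treated RMS13-R against vehicle-treated RMS13, so it mixes line and drug.

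ABCC4, which encodes MRP4, an exporter of cyclic nucleotides, prostaglandins and nucleotide analogues, was highest in RMS13 with the drug. Its levels were 10.4 and 10.6 TPM in RMS13-R with MAL3-101, 17.1 and 16.8 TPM in RMS13 with MAL3-101, and 10.5 and 9.63 TPM with DMSO. The 2 drug-treated RMS13 libraries stood above the other 4, and the resistant and DMSO libraries overlapped. The drug in RMS13 went with 0.70 on the log2 scale (SE 0.09, adjusted p = 0.00112 by limma), and RMS13-R was lower than RMS13 with the drug by -0.64 (SE 0.09, adjusted p = 7.9e-04). Against DMSO the log2 fold change was 0.06, with a 95% interval from -0.14 to 0.27.

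ABCC10, or MRP7, which exports taxanes and other drugs, was expressed but not called. It had 13.0 and 14.6 TPM in RMS13-R with MAL3-101, 15.3 and 18.2 TPM in RMS13 with MAL3-101, and 16.1 and 12.4 TPM with DMSO. The resistant libraries lay below the drug-treated RMS13 libraries and within the range of the DMSO pair. The log2 fold change was -0.26 against RMS13 with the drug (95% interval from -0.59 to 0.07, adjusted p = 0.157 by limma) and -0.03 against DMSO (95% interval from -0.37 to 0.30). Of the 4 pumps tested, then, ABCC1 and ABCC5 were higher in RMS13-R than in both RMS13 groups. ABCC4 was lower only than in RMS13 with the drug. ABCC10 passed neither test, though it was lower than with the drug when only the 4 libraries compared were fitted (adjusted p = 0.0423 by limma). The pumps' shares were 50% higher and 25% lower against the drug, beside 21.3% and 34.8% of all tested genes. Against DMSO they were 50% and 0%, beside 20.9% and 29.7%. In either direction, 75% and 50% of the pumps were called, beside 56.1% and 50.6% of all tested genes. Summed over the 10 listed pumps, the level was 92.3 and 92.3 TPM in RMS13-R with MAL3-101, 68.6 and 70.6 TPM in RMS13 with MAL3-101, and 68.0 and 60.5 TPM with DMSO.

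**Figure D3:**
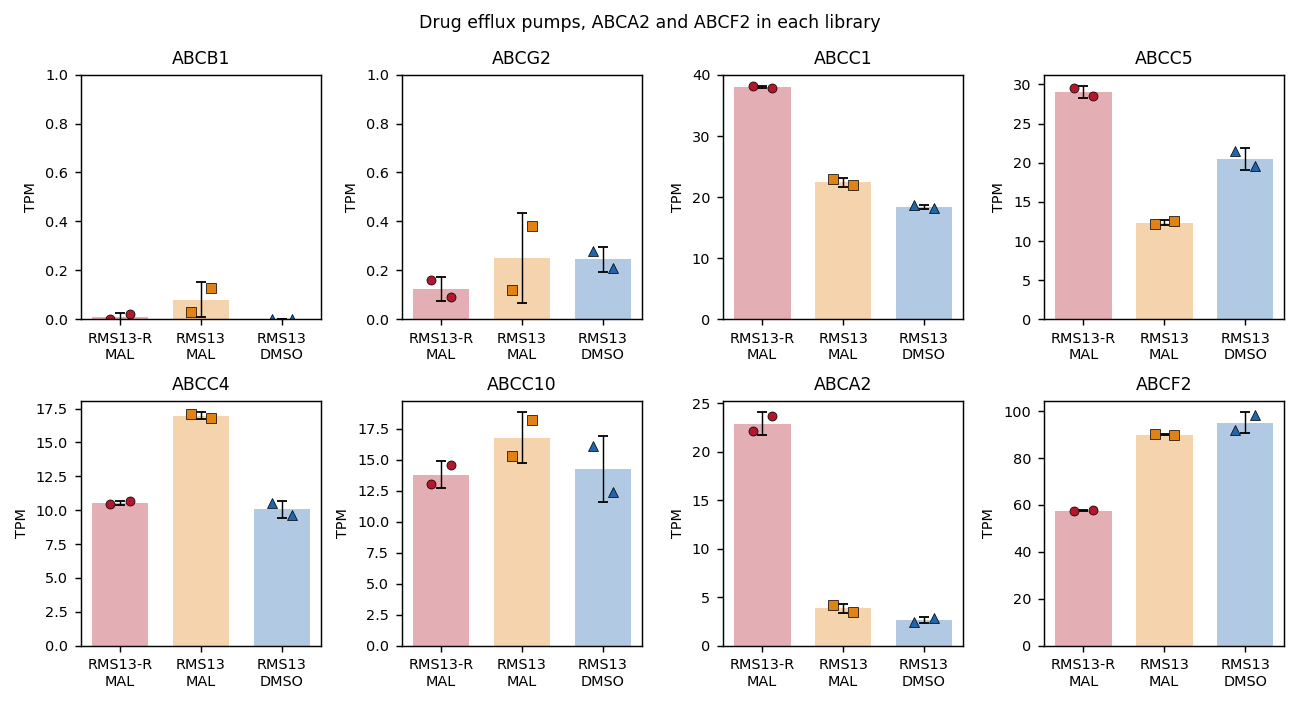
TPM of 8 ABC genes by library. Bars are means of 2 libraries, error bars are SD and points are libraries; axes start at 0 and differ between panels, and those of ABCB1 and ABCG2 end at 1 TPM. ABCB1 and ABCG2 stay at or under 0.380 TPM, ABCC1, ABCC5 and ABCA2 are highest in RMS13-R, ABCC4 is highest in RMS13 with MAL3-101, and ABCF2 is lowest in RMS13-R.

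Among lipid and sterol transporters, ABCA2 gave the largest difference of any ABC gene in these libraries. It encodes a lipid transporter of endosomes and lysosomes, best known from myelinating cells, and has been tied to resistance to the drug estramustine. Its levels were 22.1 and 23.7 TPM in RMS13-R with MAL3-101, 4.16 and 3.52 TPM in RMS13 with MAL3-101, and 2.44 and 2.86 TPM with DMSO. Both resistant libraries were far above the other 4. The mean was 5.96 times that of RMS13 with the drug and 8.64 times that with DMSO, with log2 fold changes of 2.31 (SE 0.12, adjusted p = 1.5e-05 by limma) and 2.71 (SE 0.12, adjusted p = 1.1e-05). Among 15148 tested genes it ranked 30 and 19 from the highest log2 fold change in these comparisons. The drug in RMS13 went with 0.41 (SE 0.12, adjusted p = 0.0361), a call that did not hold with the replicate block (adjusted p = 0.0544) or without any 1 of 5 libraries (adjusted p from 0.0650 to 0.202). It held without DMSO library B.

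ABCA7, a phospholipid transporter linked to phagocytosis and Alzheimer's disease risk, was the other lipid transporter above the limit. It had 2.60 and 3.46 TPM in RMS13-R with MAL3-101, 5.81 and 6.81 TPM in RMS13 with MAL3-101, and 4.43 and 5.43 TPM with DMSO. The resistant libraries were the lowest, with log2 fold changes of -0.86 (SE 0.16, adjusted p = 0.00324 by limma) against the drug and -0.56 (SE 0.16, adjusted p = 0.0237) against DMSO. The call against DMSO was lost without RMS13-R library A (-0.41, adjusted p = 0.159) or DMSO library B (-0.44, adjusted p = 0.0761). The remaining 16 lipid and bile transporters on the list were below 1 TPM in every library. ABCA1 and ABCG1, which load cholesterol onto lipoproteins, were among them: ABCA1 had 0.07 and 0.06 TPM in RMS13-R, 0.01 and 0.01 TPM in RMS13 with MAL3-101, and 0.02 and 0.01 TPM with DMSO. ABCG1 was listed at 0 in both resistant libraries and had 0.05 and 0.09 TPM in RMS13 with MAL3-101, and 0 and 0.04 TPM with DMSO. ABCA10, the most abundant of the 16, had 0.12 and 0.34 TPM in RMS13-R, 0.18 and 0.21 TPM in RMS13 with MAL3-101, and 0.19 and 0.10 TPM with DMSO.

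The promoters of ABCA2, ABCC5 and ABCC4 are shown because these genes gave the largest rise in the resistant line and the opposite drug responses in RMS13. Each is 300 bases from the RefSeq table on GRCh38.p14, from 250 before to 50 after the outermost start site, printed 5′ to 3′ on the gene's strand. Capitals mark the letters that match a motif searched on both strands.
ABCA2 promoter, chr9:137028873-137029172, minus strand: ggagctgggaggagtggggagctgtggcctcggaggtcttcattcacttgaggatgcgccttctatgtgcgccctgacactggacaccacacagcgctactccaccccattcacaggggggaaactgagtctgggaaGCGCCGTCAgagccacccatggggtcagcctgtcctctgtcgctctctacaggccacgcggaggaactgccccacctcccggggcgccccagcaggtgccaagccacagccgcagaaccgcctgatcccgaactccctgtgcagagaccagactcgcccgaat
ABCC5 promoter, chr3:184017835-184018134, minus strand: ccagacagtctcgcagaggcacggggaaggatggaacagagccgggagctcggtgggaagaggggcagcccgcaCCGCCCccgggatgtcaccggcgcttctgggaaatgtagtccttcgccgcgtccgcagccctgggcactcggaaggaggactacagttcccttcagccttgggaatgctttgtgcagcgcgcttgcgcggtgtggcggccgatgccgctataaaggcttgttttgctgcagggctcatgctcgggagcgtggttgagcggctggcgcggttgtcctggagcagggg
ABCC4 promoter, chr13:95301402-95301701, minus strand: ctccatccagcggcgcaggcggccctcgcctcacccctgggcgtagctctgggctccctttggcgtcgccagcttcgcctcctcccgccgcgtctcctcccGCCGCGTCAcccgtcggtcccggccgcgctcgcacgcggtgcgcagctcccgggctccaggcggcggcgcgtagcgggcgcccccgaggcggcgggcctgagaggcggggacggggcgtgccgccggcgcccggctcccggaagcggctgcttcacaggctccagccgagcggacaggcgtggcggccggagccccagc

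Each of these promoters held 1 match. The ABCA2 and ABCC4 matches were to the antioxidant response element (TGACNNNGC), bound by NRF2, and the ABCC5 match was to the GC box (GGGCGG), bound by SP1. The first motif was in 5 of the 17 tested ABC genes with a promoter in the table (ABCA2, ABCB6, ABCC4, ABCD4 and ABCF1) and in 13.6% of all 27305 promoters. The GC box was in 13 of 17 and in 44.6% of all. The CCAAT box (CCAAT) was in 4 of 17 and 35.7% of all, and the E-box (CACGTG) in 2 of 17 and 7.43%. No match in these windows was found for the element of CHOP and ATF4 (TGATGNAAN, 3.67% of all promoters), the endoplasmic reticulum stress element (0.0806%) or the heat shock element (0.487%). The endoplasmic reticulum stress element contains the CCAAT box. The GC content of the promoters was 64.3% for ABCA2, 65.7% for ABCC5 and 79.7% for ABCC4, beside a median of 58.3% over all promoters. A match describes the letters and says nothing of binding.

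Of the 4 mitochondrial ABC genes, 1 was called higher and 1 lower against RMS13 with the drug, and 0 higher and 1 lower against DMSO by limma, where 2 and 1 had an unadjusted p under 0.05. Over all tested genes 56.1% were called in either direction against the drug and 50.6% against DMSO. ABCB10, linked to haem synthesis, had a log2 fold change of 0.11 against RMS13 with the drug (95% interval from -0.20 to 0.41). ABCB6, a porphyrin transporter, stood at 41.2 and 48.8 TPM in RMS13-R, 32.4 and 38.6 TPM in RMS13 with MAL3-101, and 39.5 and 42.8 TPM with DMSO. Its call against the drug, 0.34 (SE 0.11, adjusted p = 0.0345 by limma), was lost without RMS13-R library B (0.22, adjusted p = 0.224) or RMS13 MAL3-101 library A (0.21, adjusted p = 0.213).

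ABCB8, linked to mitochondrial iron export and potassium channels, was the mitochondrial member that was lower in the resistant line. It had 18.3 and 19.9 TPM in RMS13-R with MAL3-101, 24.1 and 23.2 TPM in RMS13 with MAL3-101, and 27.9 and 29.6 TPM with DMSO. The 3 groups did not overlap and followed this order. The log2 fold change was -0.57 (SE 0.08, adjusted p = 8.3e-04 by limma) against DMSO and -0.29 (SE 0.08, adjusted p = 0.0136) against the drug. The second did not pass after median-ratio scaling (-0.19, adjusted p = 0.0763), without RMS13-R library A or either RMS13 MAL3-101 library (from -0.24 to -0.32, adjusted p from 0.0554 to 0.112). The drug in RMS13 went with -0.27 (SE 0.08, adjusted p = 0.0257), a call lost without any 1 of the RMS13-R or RMS13 MAL3-101 libraries (adjusted p from 0.0523 to 0.144).

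Of 4 tested peroxisomal and lysosomal members, 1 was higher and 1 lower in RMS13-R in each of its comparisons. That is 25% and 25%, beside 21.3% and 34.8% of all tested genes against the drug, and 20.9% and 29.7% against DMSO. ABCD3, which brings branched-chain acyl-CoA and bile acid precursors into peroxisomes, had 48.1 and 49.2 TPM in RMS13-R with MAL3-101, 38.0 and 37.4 TPM in RMS13 with MAL3-101, and 42.8 and 39.9 TPM with DMSO. The resistant libraries were the highest, by log2 fold changes of 0.36 (SE 0.06, adjusted p = 0.00196 by limma) against the drug and 0.23 (SE 0.06, adjusted p = 0.0157) against DMSO, the second lost when either resistant library was left out (adjusted p from 0.0786 to 0.112). ABCD4, needed for the release of cobalamin from lysosomes, was called in no comparison. It had 46.02 and 45.2 TPM in RMS13-R, 46.5 and 53.0 TPM in RMS13 with MAL3-101, and 46.9 and 55.1 TPM with DMSO. The 95% interval of its log2 fold change against DMSO ran from -0.37 to 0.07. ABCD2, a peroxisomal fatty acid transporter, was at or under 0.05 TPM.

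ABCB9, a lysosomal peptide transporter, was lower in the resistant line. It had 2.97 and 2.56 TPM in RMS13-R with MAL3-101, 4.64 and 4.97 TPM in RMS13 with MAL3-101, and 3.88 and 3.93 TPM with DMSO. The groups did not overlap. The log2 fold changes were -0.63 (SE 0.13, adjusted p = 0.00469 by limma) against the drug and -0.38 (SE 0.13, adjusted p = 0.0393) against DMSO. The second did not pass with the replicate block (adjusted p = 0.0600) or without any 1 of the 6 libraries (adjusted p from 0.0513 to 0.215). ABCB9 overlaps OGFOD2, which had 8.11 and 7.52 TPM, 11.8 and 9.76 TPM, and 9.79 and 9.53 TPM in the same groups, and reads of overlapping genes cannot be told apart without strand.

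In the rest of the C family, ABCC9, the sulphonylurea receptor SUR2 of muscle ATP-sensitive potassium channels, was higher in the resistant line. It had 3.82 and 4.05 TPM in RMS13-R with MAL3-101, 2.04 and 2.24 TPM in RMS13 with MAL3-101, and 2.61 and 1.99 TPM with DMSO. The resistant libraries were above the other 4, by log2 fold changes of 0.65 (SE 0.15, adjusted p = 0.00788 by limma) and 0.59 (SE 0.15, adjusted p = 0.0141). The first was lost without RMS13-R library B (0.62, adjusted p = 0.0596) or RMS13 MAL3-101 library A (0.61, adjusted p = 0.0541), and the second when either resistant library was left out (from 0.55 to 0.62, adjusted p from 0.0673 to 0.0909). Of the channel pores it can pair with, KCNJ8 was under 1 TPM, and KCNJ11 had 3.12 and 3.33 TPM in RMS13-R, 7.64 and 7.59 TPM in RMS13 with MAL3-101, and 3.59 and 2.20 TPM with DMSO. KCNJ11 was thus lower in RMS13-R than in RMS13 with the drug by -1.03 (SE 0.18, adjusted p = 0.00238), and higher with the drug in RMS13 by 1.17 (SE 0.18, adjusted p = 0.00257).

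ABCC6, a liver and kidney transporter that sustains plasma pyrophosphate, had 0.120 and 0.280 TPM in RMS13-R with MAL3-101, 1.13 and 1.23 TPM in RMS13 with MAL3-101, and 0.150 and 0.450 TPM with DMSO. It entered the test through the drug-treated RMS13 group alone, so a difference there was built into the choice. Its copies ABCC6P1 and ABCC6P2 are near identical, and the division of reads is uncertain. Summed with both, the level was 0.610 and 1.32 TPM in RMS13-R, 1.79 and 1.54 TPM in RMS13 with MAL3-101, and 1.22 and 0.980 TPM with DMSO. The call for the drug in RMS13, 0.76 (SE 0.19, adjusted p = 0.0175 by limma), was lost without either RMS13 MAL3-101 library (adjusted p from 0.0723 to 0.0837). ABCC8, the SUR1 subunit, had 0.22 and 0 TPM in RMS13-R, 0 and 0.12 TPM in RMS13 with MAL3-101, and was listed at 0 with DMSO, and the pseudogene ABCC13 reached 0.03 TPM.

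Of the E and F members, which are no transporters, ABCF1, ABCF2 and ABCE1 were the most abundant ABC genes. ABCF2, a cytosolic ATPase of the family with little known function, was lower in RMS13-R, with 57.4 and 57.9 TPM, than in RMS13 with MAL3-101, with 90.2 and 89.8 TPM, or with DMSO, with 92.1 and 98.2 TPM. Both resistant libraries lay well below the other 4. The log2 fold changes were -0.63 (SE 0.05, adjusted p = 7.7e-05 by limma) and -0.71 (SE 0.05, adjusted p = 5.8e-05), and the drug in RMS13 went with -0.08 (95% interval from -0.20 to 0.04). ABCF1, which promotes translation initiation, had 120.5 and 124.9 TPM in RMS13-R, 102.7 and 103.9 TPM in RMS13 with MAL3-101, and 130.9 and 131.3 TPM with DMSO. It was lower with the drug in RMS13 by -0.34 (SE 0.05, adjusted p = 0.00141) and higher in RMS13-R than in RMS13 with the drug by 0.25 (SE 0.05, adjusted p = 0.00305).

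ABCF3, a relative with antiviral roles described in mice, had 43.0 and 46 TPM in RMS13-R, 42.3 and 43.2 TPM in RMS13 with MAL3-101, and 50.7 and 50.9 TPM with DMSO. Both drug-treated groups lay below DMSO, by -0.19 (SE 0.06, adjusted p = 0.0325 by limma) for RMS13-R and -0.24 (SE 0.06, adjusted p = 0.0150) for RMS13. The first was lost after median-ratio scaling (-0.11, adjusted p = 0.145) and without any 1 of the RMS13-R or RMS13 MAL3-101 libraries (adjusted p from 0.0681 to 0.222), the second when either RMS13 MAL3-101 library was left out (adjusted p from 0.0729 to 0.102).

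ABCE1 splits ribosomes into subunits after translation ends, and its partners were on the partner list. It had 68.9 and 71.7 TPM in RMS13-R with MAL3-101, 87.4 and 90.02 TPM in RMS13 with MAL3-101, and 78.3 and 85.5 TPM with DMSO. The log2 fold changes in RMS13-R were -0.33 (SE 0.06, adjusted p = 0.00269 by limma) and -0.22 (SE 0.06, adjusted p = 0.0196). The second was lost after median-ratio scaling (-0.14, adjusted p = 0.120) and when either resistant library was left out (adjusted p from 0.0693 to 0.135). ABCE1 overlaps ANAPC10, which had 16.0 and 16.9 TPM in RMS13-R, 23.8 and 26.5 TPM in RMS13 with MAL3-101, and 14.1 and 14.5 TPM with DMSO.

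PELO, which acts with ABCE1 on stalled ribosomes, was higher, with 61.7 and 62.0 TPM in RMS13-R, 19.2 and 19.6 TPM in RMS13 with MAL3-101, and 19.2 and 21.0 TPM with DMSO. The difference was 1.62 on the log2 scale (SE 0.07, adjusted p = 6.1e-06 by limma) against the drug and 1.58 (SE 0.07, adjusted p = 9.2e-06) against DMSO. PELO lies within ITGA1, which had 17.6 and 16.8 TPM in RMS13-R, 8.92 and 8.62 TPM in RMS13 with MAL3-101, and 9.00 and 6.66 TPM with DMSO. HBS1L, the GTPase partner of PELO, named after its values were seen, had 136.4 and 131.3 TPM in RMS13-R, 117.2 and 122.5 TPM in RMS13 with MAL3-101, and 85.9 and 75.5 TPM with DMSO. It was higher against DMSO in RMS13-R by 0.73 (SE 0.07, adjusted p = 1.8e-04) and in RMS13 with the drug by 0.57 (SE 0.07, adjusted p = 9.9e-04), and did not pass between RMS13-R and RMS13 with the drug, at 0.16 (SE 0.07, adjusted p = 0.0873). The release factors ETF1 and GSPT1, named after their values were seen, went the other way. ETF1 had 65.1 and 67.4 TPM in RMS13-R, 130.5 and 123.3 TPM in RMS13 with MAL3-101, and 123.2 and 117.8 TPM with DMSO. GSPT1 was lower in RMS13-R by -0.43 (SE 0.05, adjusted p = 2.3e-04) against the drug and -0.68 (SE 0.05, adjusted p = 4.2e-05) against DMSO. Over the partner list, with 14 genes tested, 2 were higher and 4 lower in RMS13-R than in RMS13 with the drug, 6 were higher and 6 lower than with DMSO, and 5 were higher and 4 lower with the drug in RMS13. The shares were 14.3% and 28.6%, 42.9% and 42.9%, and 35.7% and 28.6%, beside 21.3% and 34.8%, 20.9% and 29.7%, and 22.6% and 18.2% of all tested genes. APOE, the lipoprotein that takes up lipid from ABCA1, was the partner with the largest difference against DMSO, with 1.51 and 1.60 TPM in RMS13-R, 3.44 and 3.55 TPM in RMS13 with MAL3-101, and 5.30 and 14.8 TPM with DMSO. Its DMSO libraries were far apart, and the log2 fold changes were -1.97 (SE 0.37, adjusted p = 0.00392) for RMS13-R and -1.15 (SE 0.37, adjusted p = 0.0426) for RMS13 with the drug.

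**Figure D4:**
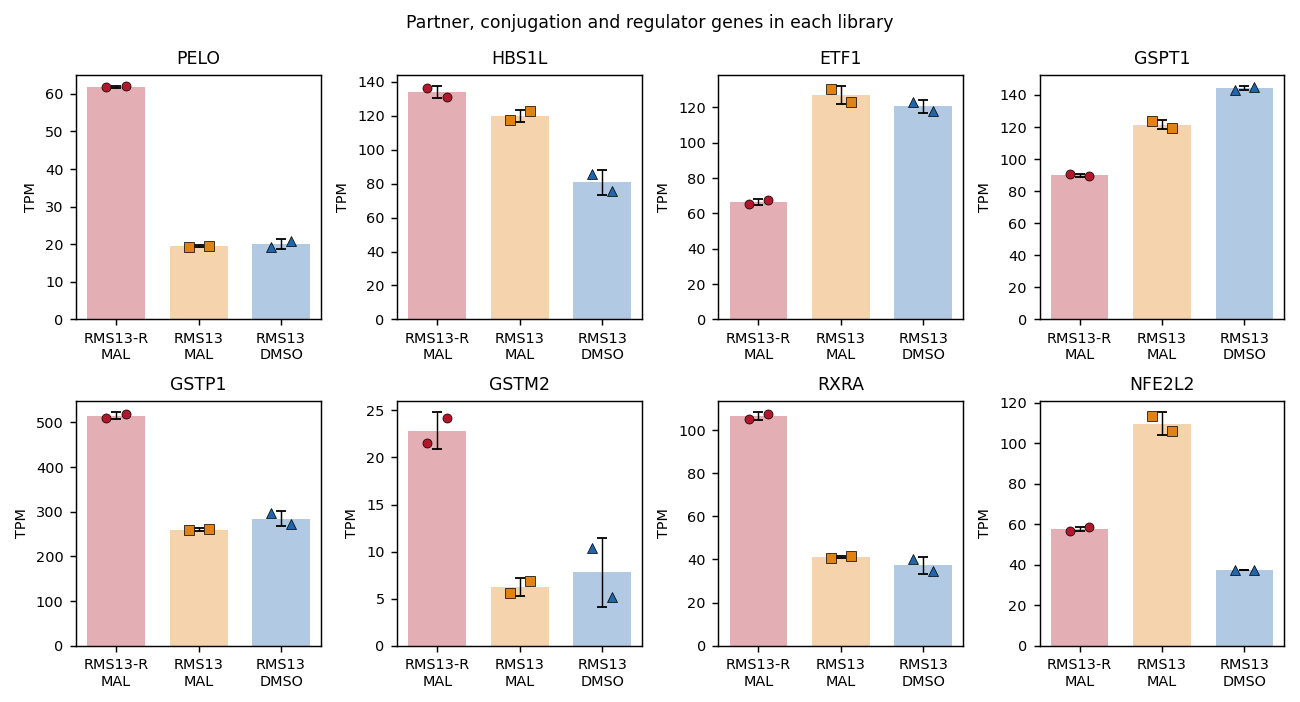
TPM by library of 4 ribosome recycling and release genes, 2 glutathione S-transferases and 2 regulators. Bars are means of 2 libraries, error bars are SD and points are libraries, with axes from 0. PELO, GSTP1, GSTM2 and RXRA are highest in RMS13-R, ETF1 and GSPT1 are lowest there, and NFE2L2 is highest in RMS13 with MAL3-101.

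Further lists give the setting of the pumps. Conjugation enzymes attach glutathione, glucuronate or sulphate to drugs, which ABCC pumps can then export. Of 14 tested, 9 were higher and 2 lower in RMS13-R than in RMS13 with the drug, and 7 higher and 3 lower than with DMSO, with median log2 fold changes of 0.43 and 0.45. Over all tested genes 21.3% were higher and 34.8% lower against the drug, 20.9% and 29.7% against DMSO, and 22.6% and 18.2% for the drug in RMS13, with medians of -0.10, -0.06 and 0.02. The list's shares were 64.3% and 14.3%, 50% and 21.4%, and 7.14% and 14.3%. GSTM2 had 21.5 and 24.2 TPM in RMS13-R, 5.56 and 6.90 TPM in RMS13 with MAL3-101, and 10.4 and 5.21 TPM with DMSO. GSTP1, the most abundant of them and named after its values were seen, had 509.0 and 519.9 TPM in RMS13-R, 258.2 and 261.9 TPM in RMS13 with MAL3-101, and 296.8 and 272.5 TPM with DMSO. All of these resistant libraries lay above all RMS13 libraries. The sulphotransferase SULT1A1 was higher against the drug, by 1.203 (SE 0.21, adjusted p = 0.00245 by limma), and SULT1A3 lower against DMSO, by -1.94 (SE 0.38, adjusted p = 0.00449). SULT1A3 had 1.74 and 6.08 TPM in RMS13-R, 7.16 and 6.98 TPM in RMS13 with MAL3-101, and 16.7 and 15.1 TPM with DMSO. Its resistant libraries were thus far apart. GSTM2 and both sulphotransferases have close relatives, and the division of reads is uncertain. The drug in RMS13 went with 1 higher and 2 lower of the 14, among them GSTO1 at -0.59 (SE 0.06, adjusted p = 6.7e-04) and GSTZ1 at 0.47 (SE 0.10, adjusted p = 0.0110).

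Receptors and factors that control ABC genes gave 3 higher and 4 lower of 15 tested in RMS13-R against the drug, and 4 and 5 against DMSO. These shares were 20% and 26.7%, and 26.7% and 33.3%, beside 21.3% and 34.8%, and 20.9% and 29.7%, of all tested genes. RXRA, the shared partner of the nuclear receptors that sense sterols and drugs, had 105.1 and 107.7 TPM in RMS13-R, 40.9 and 41.5 TPM in RMS13 with MAL3-101, and 40.1 and 34.6 TPM with DMSO. The groups did not overlap, at log2 fold changes of 1.35 (SE 0.07, adjusted p = 1.7e-05 by limma) and 1.49 (SE 0.07, adjusted p = 1.4e-05). PPARA, a fatty acid receptor, was higher against DMSO by 0.89 (SE 0.13, adjusted p = 0.00128). The drug and bile receptors NR1I2 and NR1H4 were at or under 0.1 TPM. NFE2L2, which encodes NRF2, had 56.9 and 58.4 TPM in RMS13-R, 113.6 and 105.9 TPM in RMS13 with MAL3-101, and 37.4 and 37.4 TPM with DMSO. It was lower in RMS13-R than in RMS13 with the drug by -0.92 (SE 0.06, adjusted p = 2.4e-05) and higher than with DMSO by 0.61 (SE 0.06, adjusted p = 1.6e-04). In RMS13 the drug went with 2 higher and 2 lower of the 15, the largest being NFE2L2 at 1.53 (SE 0.06, adjusted p = 6.9e-06) and its inhibitor KEAP1 at -0.46 (SE 0.05, adjusted p = 7.1e-04). Those shares were 13.3% and 13.3%, beside 22.6% and 18.2% of all tested genes.

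NRF2 targets, a list that includes ABCC1, ABCC2, ABCC3 and ABCC4, gave 1 higher and 4 lower of 10 tested in RMS13-R against the drug, and 2 and 3 against DMSO, or 10% and 40%, and 20% and 30%, beside the same all-gene shares. The higher gene against the drug was ABCC1 itself. SLC7A11, the cystine importer, had 12.3 and 13.1 TPM in RMS13-R, 28.7 and 25.6 TPM in RMS13 with MAL3-101, and 1.77 and 2.16 TPM with DMSO. HMOX1, haem oxygenase, was lower in RMS13-R by -1.67 (SE 0.12, adjusted p = 3.8e-05 by limma) against the drug and by -1.07 (SE 0.12, adjusted p = 3.0e-04) against DMSO. In RMS13 the drug went with 4 higher and 2 lower of the 10, led by SLC7A11 at 3.25 (SE 0.11, adjusted p = 5.5e-06) and by ABCC4. That is 40% and 20%, beside 22.6% and 18.2% of all tested genes. Sterol-responsive genes of the LXR and SREBP factors, a list with ABCA1 and ABCG1, gave 5 higher of 6 tested against DMSO and 2 higher against the drug, and the others did not pass. That is 83.3% and 33.3%, beside 20.9% and 21.3% of all tested genes higher. SMPDL3A was at 1.07 (SE 0.20, adjusted p = 0.00414) and MYLIP at 0.66 (SE 0.12, adjusted p = 0.00330) against DMSO, and LPCAT3 at 0.60 (SE 0.07, adjusted p = 4.7e-04) and SCD at 0.50 (SE 0.05, adjusted p = 2.1e-04) against the drug. SREBF1 was the 1 gene of the list called with the drug in RMS13, at 0.59 (SE 0.11, adjusted p = 0.00663). That is 16.7%, beside 22.6% of all tested genes higher.

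A list of transport and related genes outside the ABC family gave 3 higher and 1 lower of 7 tested in each comparison. That is 42.9% and 14.3%, beside all-gene shares of 20.9% to 22.6% higher and 18.2% to 34.8% lower. In each comparison 1 of the 3 higher genes was LRP1, which is not a drug transporter. SLCO3A1, an organic anion transporter, had 46.2 and 49.8 TPM in RMS13-R, 10.7 and 11.4 TPM in RMS13 with MAL3-101, and 6.56 and 5.71 TPM with DMSO. Both resistant libraries were far above the rest, by 2.02 (SE 0.10, adjusted p = 9.7e-06 by limma) and 2.78 (SE 0.10, adjusted p = 4.2e-06). The copper pump ATP7A was lower in RMS13-R than with the drug by -0.82 (SE 0.16, adjusted p = 0.00401). LRP1, an endocytic receptor, was higher against DMSO by 1.15 (SE 0.07, adjusted p = 3.5e-05) and with the drug in RMS13 by 0.94 (SE 0.07, adjusted p = 1.8e-04), where the organic anion transporter SLCO4A1 was lower by -0.91 (SE 0.25, adjusted p = 0.0245). Of the ABC genes that carry other names, CFTR and the peptide transporter TAP1 were under 1 TPM. TAP2, the partner of TAP1 in antigen presentation, had 7.64 and 9.00 TPM in RMS13-R, 16.8 and 18.8 TPM in RMS13 with MAL3-101, and 21.0 and 19.5 TPM with DMSO. It was lower in RMS13-R by -1.01 (SE 0.11, adjusted p = 2.3e-04) against the drug and -1.19 (SE 0.11, adjusted p = 1.4e-04) against DMSO.

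The ABC genes lie on 17 chromosomes. For each tested member, the 5 nearest tested genes on either side in RefSeq order were looked at, among 13088 of 15148 tested genes that could be placed by name. The members shown were chosen after their values were seen. Among all tested genes, 20.9% were called higher and 29.7% lower against DMSO, and 21.3% and 34.8% against RMS13 with the drug. Against DMSO, the log2 fold changes of the neighbours of ABCA2 ran from -0.07 to 0.70, with 5 higher and 0 lower. ABCA2, at 2.71, lay above all 10. The neighbours of ABCC1 ran from -1.85 to 0.29, with 1 higher and 5 lower, and ABCC1, at 1.01, also lay above all 10. Those of ABCC9 were all called higher, 10 of 10, with a median of 0.85, more than the 0.59 of ABCC9 itself. Against the drug 7 of these 10 were higher and 1 lower. ABCB8 and ABCF2 are close to each other on chromosome 7 and share 4 of these neighbours, and ABCC6 is 1 of the neighbours of ABCC1. Of the neighbours of ABCF2, 7 were lower and 1 higher against DMSO, with a median of -0.48, and of those of ABCB8, 5 were lower and 1 higher. The part of gene position in these levels was not tested.

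**Figure D5:**
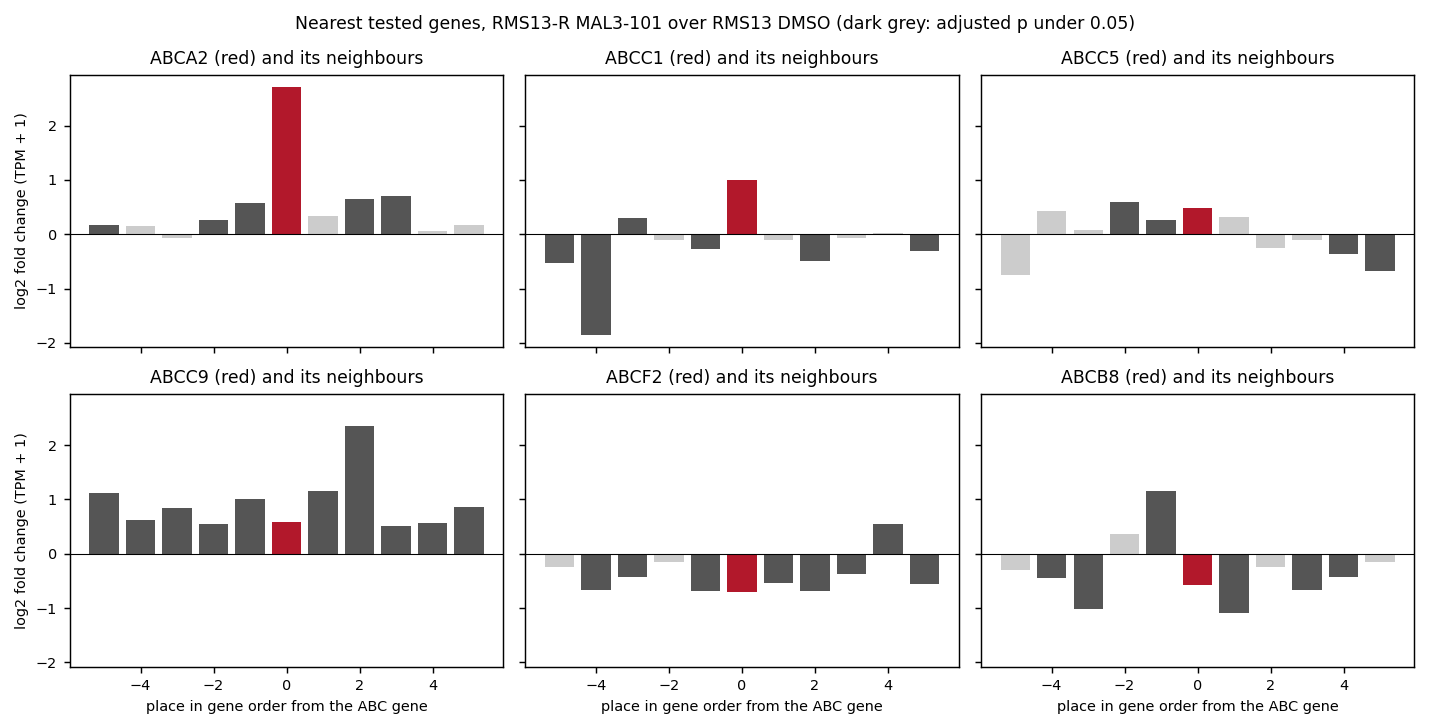
Log2 fold changes, on the TPM + 1 scale, of 6 ABC genes (red, place 0) and the 5 nearest tested genes on each side in RefSeq gene order, for RMS13-R with MAL3-101 over RMS13 with DMSO. Dark grey bars passed an adjusted p under 0.05. ABCA2 and ABCC1 stand above all their neighbours, while the 10 neighbours of ABCC9 are all higher.

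In parental RMS13 the called pumps went in both directions with the drug, with ABCC4 and ABCC1 higher and ABCC5 lower. Of the other members, ABCA2 and ABCC6 were called higher and ABCB8, ABCF1 and ABCF3 lower. The calls of ABCC1, ABCA2, ABCC6, ABCB8 and ABCF3 were lost when some single libraries were left out, as given above. Mitochondrial ribosomal RNA also differed, at 0.784% and 0.767% of TPM in RMS13-R, 1.92% and 1.97% in RMS13 with MAL3-101, and 0.533% and 0.565% with DMSO. With mitochondrial genes left out before scaling, the same members were called in each of the 3 comparisons. When tested against a fold of 1.5 with limma, 2 members passed in RMS13-R against the drug, ABCA2 and ABCC5, and 2 against DMSO, ABCA2 and ABCC1. Of all tested genes, 2.87% and 3.25% were called higher by that test in these comparisons, and 7.72% and 4.96% lower. For the drug in RMS13 the all-gene shares were 1.97% higher and 0.31% lower. With shares this small, few or no calls among 20 members say little about the members. No member passed that test for the drug in RMS13, where 0 of 20 also had an unadjusted p under 0.05, and 0 were called lower in either resistant comparison, where 0 and 1 (ABCF2) had an unadjusted p under 0.05. Under all 17 alternative settings ABCA2 was called higher in RMS13-R in both comparisons. ABCC1 and ABCC5 were too, apart from the test against a fold of 1.5, which ABCC1 did not pass against the drug (adjusted p = 0.196) and ABCC5 did not pass against DMSO (adjusted p = 1).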

How the data were processed

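RNA was taken from RMS13 and RMS13-R cells and paired-end TruSeq libraries were sequenced, per the labels' protocols. The submitters' processing notes list RSEM, DESeq and the build hg19. Which versions, aligner, annotation and strand setting were used is not given in the sources. The authors deposited TPM per gene name with 2 decimals, 1 file per library. No counting interval or floor can be had from TPM.

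Libraries were grouped by titles and descriptions. Genes that averaged at least 1 TPM in some group were tested with limma 3.58.1 in R 4.3.3 on log2(TPM + 1), with group means over all 6 libraries, a mean-variance trend, 3 residual and 4.17 prior degrees of freedom, and Benjamini-Hochberg adjustment over 15148 genes. The code was tested on simulated data. The members and lists were chosen with earlier results of these data known. Per-library values are given for ABCB1, ABCC1, ABCG2, other pumps at 1 TPM, members called with a log2 fold change of 1 or more, the 3 most abundant members of each role and the called members with the largest change. Of partner lists, the 2 called genes with the largest change per comparison are named. Gene names, order and overlaps, and the promoter sequences searched for motifs, come from RefSeq on GRCh38.p14. The TPM values were made on hg19. Python 3.11.15 and matplotlib 3.10.9 served for the rest. Alternatives were other pseudocounts, filters and scalings, a fit of only the 4 libraries compared, a replicate block, no trend, no mitochondrial genes, a fold of 1.5 and each library left out. Values of 2 members are not reported here, while the counts over all members include them.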

Additional observations from a re-analysis of the deposited data

How the results depend on the processing

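Of 60 fold changes of the 20 tested ABC genes, recomputed under 17 alternatives, 1010 values could be had. Of these, 901 kept their direction and their side of the threshold or were uncalled throughout, 95 lost a call, 14 gained one and 0 of the called values changed direction. With the replicate block, the counts of ABC genes called were 7 higher and 7 lower in RMS13-R against the drug, 5 and 5 against DMSO, and 3 and 5 for the drug in RMS13. The shares of all tested genes with that block were 21% and 34.4%, 20.4% and 29%, and 21.8% and 17.4%. Correlations of the deviations of same-lettered libraries were between -0.02 and 0.03. These values cannot tell if A and B mark a shared batch or culture.

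Against a fold of 1.5, ABC genes called higher and lower were 2 and 0 in RMS13-R against the drug, 2 and 0 against DMSO, and 0 and 0 for the drug in RMS13, and all genes called were 435 and 1169, 492 and 752, and 299 and 47. After median-ratio and upper-quartile scaling, 3 ABC genes were lower in RMS13-R against DMSO, beside 25.4% and 25.9% of all genes tested. With only the 4 libraries compared, 2 ABC genes were higher with the drug in RMS13, beside 18.6% of all tested genes. Leaving out each library in turn, ABC genes called higher ranged from 5 to 7 and lower from 6 to 7 in RMS13-R against the drug, from 3 to 6 and from 2 to 6 against DMSO, and from 1 to 5 and from 2 to 6 for the drug in RMS13. All genes called ranged from 2126 to 3958 higher and from 3803 to 6147 lower, from 1926 to 3930 and from 2946 to 5092, and from 1799 to 4501 and from 1359 to 3444. With 1 library left in a group, that library is assumed to vary like the others.

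Upper-quartile scaling moved the median log2 fold change of all genes in RMS13-R against the drug to 0.01, against -0.10 as deposited, and the share of calls that were higher to 50.7%, against 38.0% (49.3% after median-ratio scaling), so a member's fold change there is larger by that shift. The causes were not tested. With 2 libraries a group and no depth, small differences of low genes could not be resolved.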
